A study of Mus musculus with 8 samples.

Results

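The 34 genes described here encode chaperones of the endoplasmic reticulum (ER) and parts of the unfolded protein response. They were taken by gene symbol from a list of members, out of 56859 genes in the deposited tables, and all 34 were found. By role they are 3 sensors or transcription factors, 8 chaperones and their partners, 4 J-domain co-chaperones, 5 disulfide isomerases, 5 subunits of the translocon and its associated complex, 8 genes of ER-associated degradation, and Wfs1, which encodes the ER membrane protein wolframin. The cells were BV2, a mouse microglial line immortalized with an oncogene-carrying retrovirus and given as wild type in the labels, and their poly(A) RNA was sequenced. Oxygen-glucose deprivation was applied in every group: with 10panx1 at 9 h (3 libraries), without it at 9 h (3 libraries, called control), with 10panx1 at 6 h (1 library) and without it at 6 h (1 library, also called control). Deprivation was a glucose-free medium under 1% O2, which the labels' protocol gives as lasting 9 h before return to normal medium and air. From which point the 6 h and 9 h in the titles are counted is not given. None of the 8 libraries came from cells without deprivation. The agent 10panx1 is a peptide blocker of pannexin 1, a membrane channel that releases ATP. As the labels name no control peptide, channel block and any further action of the peptide cannot be told apart. For the early 10panx1 library the title gives the peptide and the treatment label omits it; the title was followed.

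The ER folds membrane and secreted proteins. When unfolded proteins build up, the chaperone BiP (encoded by Hspa5) leaves the membrane sensors IRE1 (Ern1), ATF6 (Atf6) and PERK. IRE1 then splices the Xbp1 transcript, ATF6 is cleaved into a transcription factor, and PERK slows translation and raises ATF4. The first pair of branches turns on genes for chaperones, disulfide isomerases and ER-associated degradation, which pulls misfolded proteins back to the cytosol for destruction. Glucose is needed for the sugar chains of new glycoproteins, and glucose deprivation is a classical inducer of this response, from which the name of the glucose-regulated proteins Hspa5 and Hsp90b1 derives.

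ATF6, together with the CCAAT-binding factor NF-Y, and XBP1 are known to act through a promoter sequence called the ER stress response element (ERSE). Its letters are CCAAT, then 9 bases of any kind, then CCACG. Promoter windows of 300 bases, from 250 before to 50 after the annotated start, were matched by symbol to 28 of the 34 members (RefSeq, GRCm38.p6), while Hyou1, Manf, Sec61a1, Ssr2, Atf6 and Derl1 had no window. Both strands were searched for exact matches. The ERSE stood in the windows of 9 of these 28 members, against 39 of 32851 windows of all genes (0.119%). The windows of all genes include the members' own. The element was known beforehand from this response, and no test of enrichment was made. The matches follow with 4 flanking bases, 5′ to 3′ in the orientation of the element, with the genome strand read and with its fixed letters in capitals. They are shown for the bases that the search left free and those on either side.
Hspa5 (chr2:34772021-34772047, plus strand): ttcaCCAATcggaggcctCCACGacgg
Calr (chr8:84847071-84847097, plus strand): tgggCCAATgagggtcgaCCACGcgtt
Derl3 (chr10:75893238-75893264, minus strand): ctagCCAATggggaagtcCCACGgtag
Hsp90b1 (chr10:86705634-86705660, minus strand): aagcCCAATcgcaaggagCCACGcttc
Hsp90b1 (chr10:86705529-86705555, plus strand): ctcaCCAATcgtgcctcaCCACGcact
Canx (chr11:50325796-50325822, minus strand): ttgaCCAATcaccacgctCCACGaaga
Pdia6 (chr12:17266487-17266513, plus strand): gagaCCAATgaaaggcggCCACGgcgt
Dnajc3 (chr14:118937823-118937849, plus strand): acaaCCAATcagcgccaaCCACGaccc
Creld2 (chr15:88819516-88819542, minus strand): tggaCCAATtgaggctcgCCACGagaa
Syvn1 (chr19:6046528-6046554, plus strand): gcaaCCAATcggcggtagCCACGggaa

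Hsp90b1 had 2 of these elements, on opposite strands. In Calr, Derl3 and Creld2 the element lay on the strand opposite to the gene. The nearest to a start were those of Syvn1, 44 to 26 bases before it, and Hspa5, 65 to 47 bases before it. A related element, ERSE-II, has the letters ATTGG, then 1 base of any kind, then CCACG, and was found in 2 members, against 12 of all windows (0.0365%). It is shown in the same way.
Herpud1 (chr8:94386373-94386391, plus strand): gctgATTGGgCCACGttgg
Dnajb11 (chr16:22857848-22857866, plus strand): ggcgATTGGcCCACGcctg

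In Dnajb11 this element lay after the start and not before it. The XBP1-binding core TGACGTGG was in none of the 28 members' windows (0.676% of all windows), and the ATF4 core TGATGCAA was in 1 of them, that of Herpud1 (0.895% of all windows). The short parts of the ERSE are common: CCAAT on its own was in the windows of 22 members and 37.4% of all windows, and CCACG in those of 23 members and 32.8% of all windows. These matches overlap the ERSE matches. A match describes the letters of a window and not a bound site. The 250 bases before the start are shown for Hspa5 and Calr, the 2 chaperone genes with the highest TPM, with the fixed letters of the ERSE in capitals. In Calr, read along the gene, the element appears as its reverse complement.
Hspa5 (chr2:34771840-34772089, plus strand): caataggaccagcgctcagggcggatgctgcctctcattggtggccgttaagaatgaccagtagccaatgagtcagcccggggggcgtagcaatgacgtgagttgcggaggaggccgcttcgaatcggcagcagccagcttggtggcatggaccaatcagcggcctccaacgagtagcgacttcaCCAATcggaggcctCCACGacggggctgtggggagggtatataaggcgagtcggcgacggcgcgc
Calr (chr8:84846932-84847181, minus strand): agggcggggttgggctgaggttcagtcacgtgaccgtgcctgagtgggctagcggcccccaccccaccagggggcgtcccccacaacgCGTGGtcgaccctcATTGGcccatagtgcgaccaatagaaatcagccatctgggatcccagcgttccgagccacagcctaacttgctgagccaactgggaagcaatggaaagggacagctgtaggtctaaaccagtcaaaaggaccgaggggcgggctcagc

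**Figure D1:**
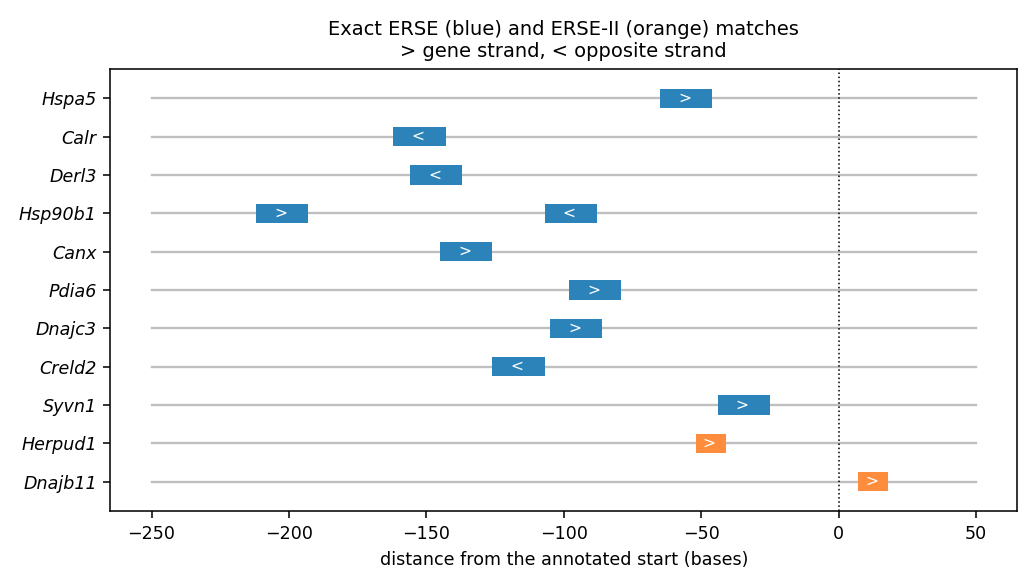
Position of exact ERSE (blue) and ERSE-II (orange) matches in the promoter windows of 11 members, in bases from the annotated start (dotted line), each window drawn as a grey line. All matches but that of Dnajb11 lie before the start.

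Libraries held between 18056693 and 23164860 counts, and 3 counts equalled 0.131 to 0.16 CPM (counts per 1000000 counts, here scaled by TMM factors). Markers of the labelled cell type were present, with 12 of 15 microglia or macrophage markers over 1 CPM in every library, among them Csf1r, Cd68 and Tyrobp. The homeostatic microglial marker P2ry12 reached at most 0.491 CPM, Tmem119 at most 1.48 CPM and the microglial marker Aif1 at most 3.48 CPM. One library stood apart, control replicate 3 at 9 h, where 7 hepatocyte markers summed to 208 CPM against at most 1.81 CPM in the other 7 libraries, and 6 fibroblast markers to 41.0 CPM against at most 1.57 CPM. Calls of members are also given without it, whereas most levels, sums and counts of overlap include it. Without it the members' median log2 fold change at 9 h, 10panx1 over control, was -0.079. Whether replicates are separate cultures is not stated in the labels, and the p-values therefore reflect only the spread among these libraries, which may be technical. Transcript per cell and number of cells cannot be told apart in such bulk samples. At 9 h Panx1 itself averaged 32.3 ± 3.92 CPM with 10panx1 and 32.7 ± 1.83 CPM in controls (SD, n = 3 each; edgeR, adjusted p = 0.922), and Src, the gene the study's design asks about, averaged 86.0 ± 9.22 CPM with 10panx1 and 62.2 ± 6.41 CPM in controls (edgeR, adjusted p = 0.0035).

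Levels of different members are compared in TPM (transcripts per 1000000 transcripts), which correct for length. P4hb, the prototype protein disulfide isomerase, lay at 1357, 1434 and 1344 TPM with 10panx1 at 9 h, and at 1398, 1354 and 1341 TPM in controls. Calr, the calcium-binding lectin chaperone, lay at 1287, 1195 and 1216 TPM with 10panx1, and at 1447, 1406 and 1432 TPM in controls. Calr was therefore above P4hb in each control library at 9 h and below it in each 10panx1 library at 9 h, while at 6 h Calr was above P4hb both with 10panx1 (Calr 1664, P4hb 1261 TPM) and in the control (Calr 1834, P4hb 1238 TPM). Hspa5 followed at 866 ± 12.3 TPM with 10panx1 and 970.3 ± 29.5 TPM in controls (SD, n = 3 each). These 3 genes held 42.1% and the highest 7 genes 65.4% of the members' summed TPM in controls at 9 h. At the other end, Wfs1 averaged 10.1 ± 0.833 TPM with 10panx1 and 13.3 ± 0.764 TPM in controls, and the sensor Ern1 12.5 ± 1.24 TPM with 10panx1 and 15.1 ± 0.757 TPM in controls. Derl3, a derlin known from secretory tissues, was near the floor, with 6, 8 and 4 counts in 10panx1 and 7, 10 and 12 counts in control libraries at 9 h. In all, 21 members averaged at least 100 TPM in controls at 9 h and 3 were under 20 TPM. The summed TPM of the 34 members was 8512, 8415 and 8361 with 10panx1, against 9084, 8798 and 8926 in controls at 9 h, so that the groups did not overlap. The sum over the 8 chaperones was 3568 ± 85.3 TPM with 10panx1 and 3960.4 ± 93.2 TPM in controls, a difference of -9.91%. That over the 5 disulfide isomerases was 2509.8 ± 34.7 TPM with 10panx1 and 2544 ± 33.1 TPM in controls, a difference of -1.35%. Calr and Hspa5 are the largest terms of the chaperone sum and P4hb that of the isomerase sum, so these genes weigh most in them.

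Addition of 10panx1 at 9 h was set against deprivation alone, the comparison the series was designed for. With 10panx1, 8 members fell and 0 rose: the sensor Ern1, the chaperones and partners Hspa5, Hyou1, Calr and Manf, the co-chaperone Dnajc3, the degradation gene Selenos, and Wfs1. In the deposited table these are Ern1 on chromosome 11 (ENSMUSG00000020715), Hspa5 on 2 (ENSMUSG00000026864), Hyou1 on 9 (ENSMUSG00000032115), Calr on 8 (ENSMUSG00000003814), Manf on 9 (ENSMUSG00000032575), Dnajc3 on 14 (ENSMUSG00000022136), Selenos on 7 (ENSMUSG00000075701) and Wfs1 on 5 (ENSMUSG00000039474). All 8 changes were small: Hyou1, at one end, fell by 9.39% and Wfs1, at the other, fell by 24.3%. The 25 other tested members were not called, and the disulfide isomerases as well as the subunits of the translocon had 0 calls. Genes were tested with edgeR's quasi-likelihood test over 13392 genes at a Benjamini-Hochberg adjusted p of 0.05. Of all tested genes 9.21% were called, 4.14% as lower and 5.06% as higher, and the members' share called as lower was 24.2% of the 33 tested. These shares were not matched for expression level, and the members were chosen with earlier results of these data known. With single libraries left out, 2 to 6 members were called. Derl3 did not pass the filter on low counts and was not tested. No member was higher at an unadjusted p under 0.05 either (edgeR, 0 members), and 14 were lower at that level. The share of all genes at that level is not given here, so these counts have no background beside them. DESeq2 called 9 members lower and 0 higher, and 4.11% of all genes lower. The median log2 fold change of the 33 members was -0.08, beside -0.003 over all tested genes, and 27 of 33 were below 0. In 16 members all 10panx1 libraries lay below all controls, a pattern that 14.8% of all tested genes had, and in 1 member, Dnajc10, all lay above, a pattern that 14.2% had.

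**Figure D2:**
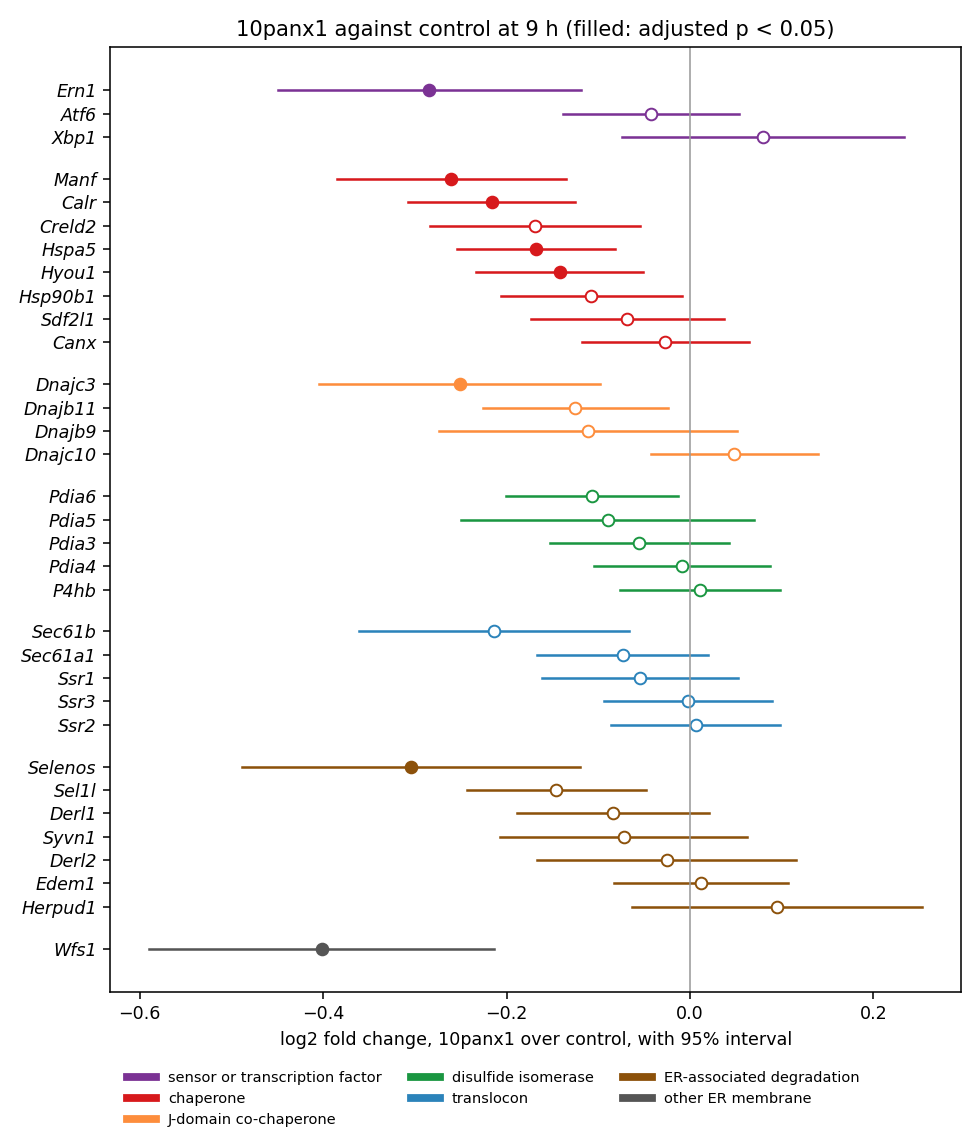
Log2 fold change at 9 h, 10panx1 over control, of the 33 tested members with its 95% interval (edgeR), grouped and coloured by role; filled points passed the adjusted p of 0.05. The 8 filled points all lie left of 0, from -0.40 (Wfs1) to -0.14 (Hyou1), and the 5 disulfide isomerases lie between -0.11 and 0.01.

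Among sensors and transcription factors, Ern1, which encodes the IRE1 kinase and nuclease, lay at 32.9, 37.5 and 31.7 CPM with 10panx1, against 42.8, 39.5 and 42.0 CPM in controls. The groups did not overlap, and 10panx1 replicate 2 came closest to the controls. The fitted log2 fold change was -0.28 ± 0.0771 (SE, edgeR, adjusted p = 0.0324). Xbp1, the transcription factor whose transcript IRE1 splices, lay at 76.9, 89.8 and 77.5 CPM with 10panx1 and at 74.0, 72.7 and 84.5 CPM in controls, so the groups overlapped (log2 fold change 0.08, edgeR, adjusted p = 0.548). Counts per gene do not separate spliced from unspliced Xbp1. Atf6, the sensor that is itself a transcription factor, lay at 184, 181 and 193 CPM with 10panx1 and at 190.4, 194 and 191 CPM in controls, also with overlap (log2 fold change -0.04, edgeR, adjusted p = 0.615).

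Of the 8 chaperones and their partners 4 fell, 0 rose and all 8 were below 0, with a median log2 fold change of -0.16. Among all tested genes 4.14% were called lower and 5.06% higher. Hspa5 encodes BiP, the Hsp70 of the ER. It lay at 1267, 1233 and 1254 CPM with 10panx1, against 1439.8, 1380.1 and 1398 CPM in controls. Every 10panx1 library was below every control, by a log2 difference of -0.17 ± 0.0402 (SE, edgeR, adjusted p = 0.0178). Hyou1, the large Hsp70 relative that exchanges the nucleotide of BiP, lay at 318, 331 and 312 CPM with 10panx1, against 355, 353 and 353 CPM in controls. Its controls were nearly equal and above each 10panx1 library, and the fitted log2 fold change was -0.14 ± 0.0425 (SE, edgeR, adjusted p = 0.0493).

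Calr lay at 1103, 1019 and 1058 CPM with 10panx1, against 1236, 1223 and 1235 CPM in controls. No control came within the range of the 10panx1 libraries, and the fitted log2 fold change was -0.22 ± 0.0426 (SE, edgeR, adjusted p = 0.00628). Canx, the membrane-bound relative of Calr with the same lectin function, lay at 811, 752 and 789 CPM with 10panx1 and at 798, 795 and 804 CPM in controls. The groups overlapped, with 10panx1 replicate 1 above every control (log2 fold change -0.03, edgeR, adjusted p = 0.754). Manf, a small secreted factor that is retained in the ER and binds BiP, lay at 52.3, 53.9 and 49.8 CPM with 10panx1, against 62.8, 61.4 and 62.4 CPM in controls. Its groups were clearly apart, with a log2 difference of -0.26 ± 0.0586 (SE, edgeR, adjusted p = 0.013). The span of Manf in the deposited table overlaps Dcaf1 on the opposite strand and Rbm15b on the same one. Their log2 fold changes were 0.04 and 0.02 (edgeR, adjusted p = 0.667 and 0.89), and the setting that assigned reads in the overlap is not known here.

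The other 4 genes of this group were not called. Creld2, a secreted ER stress protein, lay at 68.9, 69.3 and 67.7 CPM with 10panx1 and at 80.3, 76.8 and 74.1 CPM in controls, without overlap (log2 fold change -0.17, edgeR, adjusted p = 0.0635). Hsp90b1, the Hsp90 of the ER, lay at 505, 462 and 487 CPM with 10panx1 and at 542, 511 and 514 CPM in controls, also without overlap (log2 fold change -0.11, edgeR, adjusted p = 0.166). Sdf2l1, a partner of Dnajb11, lay at 115, 122 and 117 CPM with 10panx1 and at 129, 119 and 123 CPM in controls, with overlap (log2 fold change -0.07, edgeR, adjusted p = 0.432). Antibody-secreting cells are rich in these chaperones. Of 7 markers of B or plasma cells 6 were under 1 CPM in every library, and the list's sum, mostly Sdc1, ran from 24.6 to 28.0 CPM with 10panx1 and from 28.4 to 34.2 CPM in controls at 9 h. Some other marker lists lay apart between the groups at 9 h. The endothelial list, mostly Flt1, summed to 242 to 258 CPM with 10panx1 and to 226 to 238 CPM in controls, and the neuronal list, with 5 of 6 genes under 1 CPM in every library, summed to 1.01 to 1.38 CPM with 10panx1 and to 1.75 to 2.62 CPM in controls. The part of these markers in the members' differences was not tested.

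Of the 4 J-domain co-chaperones, which feed clients to BiP and stimulate its ATPase, 1 fell, beside 4.14% of all tested genes. Dnajc3, also known as an inhibitor of PERK, lay at 41.9, 42.6 and 49.1 CPM with 10panx1, against 53.6, 51.4 and 54.0 CPM in controls. The groups did not overlap, and 10panx1 replicate 3 was nearest to the controls. Its log2 fold change came to -0.25 ± 0.0717 (SE, edgeR, adjusted p = 0.0401). Dnajb11, which binds nascent clients, lay at 133, 136 and 131 CPM with 10panx1 and at 139.7, 145 and 151 CPM in controls (log2 fold change -0.13, edgeR, adjusted p = 0.116). Dnajb9, known as a repressor of IRE1, lay at 40.6, 40.4 and 41.4 CPM with 10panx1 and at 41.0, 42.2 and 49.2 CPM in controls. Control replicate 3, the library that stood apart, was the highest (log2 fold change -0.11, edgeR, adjusted p = 0.408). In 17 alternative analyses the log2 fold change of Dnajb9 ran from -0.16 to -0.03. Dnajc10, a disulfide reductase of the degradation route, was the single member with every 10panx1 library above every control, at 198, 192 and 193 CPM with 10panx1 against 186, 188 and 188 CPM in controls. It was not called (log2 fold change 0.05, edgeR, adjusted p = 0.537).

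**Figure D3:**
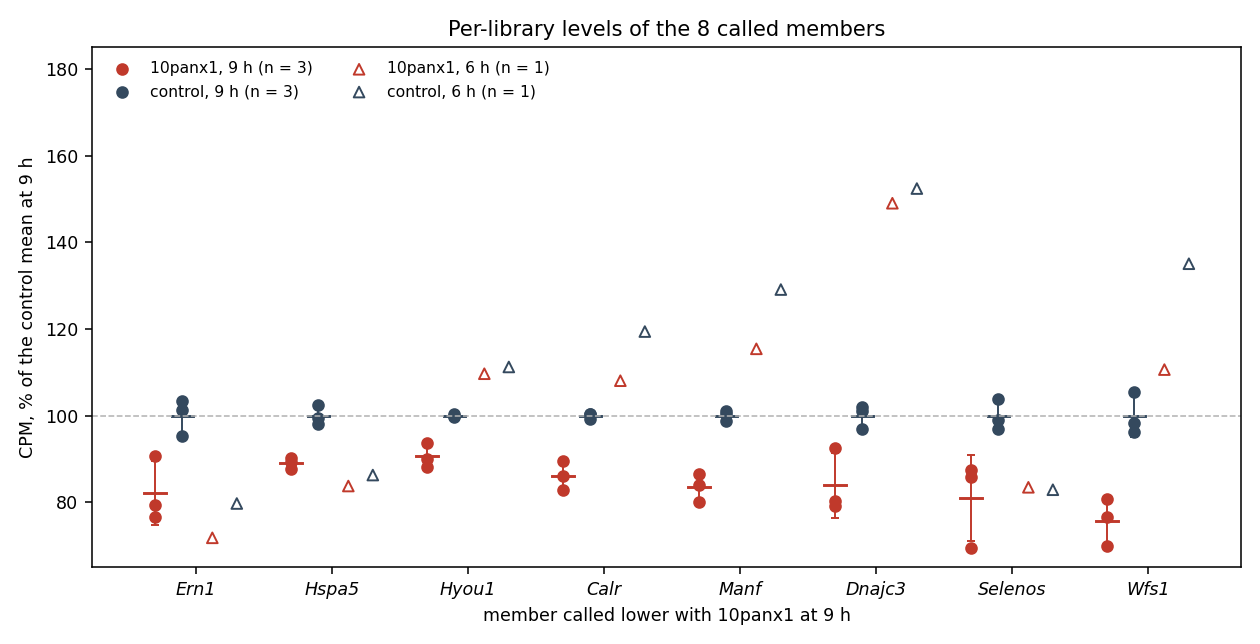
CPM of the 8 members called lower with 10panx1 at 9 h in each library, as percent of the control mean at 9 h (dashed line); bars are the mean and SD of 3 libraries at 9 h, and open triangles are the single libraries at 6 h. No filled 10panx1 point reaches a control point, and at 6 h Dnajc3 lay near 150% of the 9 h control mean in both libraries.

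The disulfide isomerases, which form and rearrange disulfide bonds, had 0 of 5 members called, with a median log2 fold change of -0.06. At an unadjusted p under 0.05 there was 1 (edgeR), and DESeq2 called 0. Of all tested genes 9.21% were called, so 0 calls among 5 genes do not set this group apart. P4hb lay at 1523, 1601 and 1533 CPM with 10panx1 and at 1565, 1542 and 1514 CPM in controls. Its groups overlapped and the log2 fold change was 0.01 with a 95% interval from -0.08 to 0.10. Pdia3, the isomerase that works with Calr and Canx on glycoproteins, lay at 721, 679 and 749.8 CPM with 10panx1 and at 733, 746 and 755 CPM in controls (log2 fold change -0.06, edgeR, adjusted p = 0.505). Pdia6, which was the lowest of the group in fold change, lay at 246, 262 and 249 CPM with 10panx1 and at 274, 267 and 275 CPM in controls (log2 fold change -0.11, edgeR, adjusted p = 0.146). Of the isomerases it alone had no overlap between the groups. Pdia4 and Pdia5 had log2 fold changes of -0.01 and -0.09 (edgeR, adjusted p = 0.935 and 0.51).

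The translocon, through which new proteins enter the ER, also had 0 of 5 members called, with a median log2 fold change of -0.05. There was 1 at an unadjusted p under 0.05 (edgeR), and DESeq2 called 0. Beside 9.21% of all tested genes called, this count of 0 does not set the translocon apart either. Sec61b, the small beta subunit of the channel, lay at 49.4, 47.3 and 53.9 CPM with 10panx1 and at 55.4, 61.9 and 57.2 CPM in controls, without overlap (log2 fold change -0.21, edgeR, adjusted p = 0.067). Sec61a1, the channel's pore subunit, lay at 281, 278 and 283 CPM with 10panx1 and at 307, 285 and 294 CPM in controls, again without overlap and with a smaller difference (log2 fold change -0.07, edgeR, adjusted p = 0.331). Ssr1, Ssr2 and Ssr3, subunits of the translocon-associated protein complex, had log2 fold changes of -0.05, 0.01 and -0.002, and their groups overlapped.

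Of the 7 tested genes of ER-associated degradation 1 fell, beside 4.14% of all tested genes. Selenos, a selenoprotein of the retrotranslocation complex, lay at 34.7, 28.1 and 35.4 CPM with 10panx1, against 40.1, 42.0 and 39.2 CPM in controls. The groups did not overlap, and 10panx1 replicate 2 was the lowest. The fitted log2 fold change was -0.30 ± 0.0861 (SE, edgeR, adjusted p = 0.0386). Sel1l, the adaptor of the ubiquitin ligase HRD1, lay at 189, 188 and 198 CPM with 10panx1 and at 212, 205 and 218 CPM in controls, without overlap (log2 fold change -0.15, edgeR, adjusted p = 0.0606). Syvn1, which encodes HRD1 itself, lay at 54.6, 51.8 and 53.1 CPM with 10panx1 and at 59.6, 53.6 and 54.5 CPM in controls, with overlap (log2 fold change -0.07, edgeR, adjusted p = 0.531). The derlins Derl1 and Derl2, which form the exit path, had log2 fold changes of -0.08 and -0.03 (edgeR, adjusted p = 0.319 and 0.864). Edem1, which marks misfolded glycoproteins, and Herpud1, a scaffold of the ligase complex, were above 0 with log2 fold changes of 0.01 and 0.10 (edgeR, adjusted p = 0.911 and 0.475). Syvn1 and Derl2 overlap Mrpl49 and Mis12 at their ends in the deposited table, both on the opposite strand, so part of their counts is uncertain if strand was not used. Mrpl49 itself was called lower with 10panx1 (log2 fold change -0.26, edgeR, adjusted p = 0.0313), and Mis12 was not called (log2 fold change -0.12, edgeR, adjusted p = 0.277).

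Wfs1 lay at 15.3, 16.1 and 13.9 CPM with 10panx1, against 21.0, 19.2 and 19.6 CPM in controls. It had the largest change among the members tested at 9 h and its groups were far apart, with a log2 difference of -0.40 ± 0.088 (SE, edgeR, adjusted p = 0.0113). All 8 called members kept a negative fold change in each of 17 alternative analyses, but the number of calls depended on single libraries. Without control replicate 1, Calr and Manf were called and the other 6 were not (2.01% of all genes called lower). Calr, Manf and Wfs1 were called without control replicate 2 (2.11%), and also without control replicate 3, whose hepatocyte and fibroblast markers stood apart (2.57%). Leaving out 10panx1 replicate 1 left 5 calls (4.53%), leaving out 10panx1 replicate 2 left 6 (2.17%), and leaving out 10panx1 replicate 3 left 2, Calr and Dnajc3 (1.92%). Calr was called in 6 of 6 such fits, Manf in 5, Wfs1 in 4 and Hspa5 in 2, whereas Ern1, Hyou1, Dnajc3 and Selenos were each called in 1. On the deposited TPM with limma, Calr and Manf were the 2 members called, both with log2(TPM + 1), where 1.28% of all genes were lower, and with log2(TPM + 0.1), where 1.27% were. With no filter on TPM, limma on log2(TPM + 1) called 0 members and 0 of 27104 genes. An unadjusted p under 0.05 was seen in 13 members, all lower, and in 3422 of all genes in either direction. With all libraries, no replicate block and other scalings, filters or tools on counts, 6 to 9 members were called lower, against 4.08% of all genes with RLE scaling, 4.29% with upper-quartile scaling, 3.25% with no filter, 3.91% with a mean of at least 10 counts, 4.11% with DESeq2, 4.08% with limma-voom and 2.98% in a fit of all 8 libraries.

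Other genes of the ER folding pathways were compared through 97 genes in 9 lists, of which 95 were tested at 9 h. Of these 3 fell and 1 rose, that is 3.16% and 1.05%, with a median log2 fold change of -0.03. Of all tested genes 9.21% were called, 4.14% as lower and 5.06% as higher. The medians of the lists ran from -0.10 for other genes of translocation (12 of 14 below 0) to 0.03 for ER turnover and export (3 of 7 below 0). Sec61g, the third subunit of the Sec61 channel, lay at 50.7, 39.8 and 46.0 CPM with 10panx1, against 56.3, 63.9 and 60.5 CPM in controls (log2 fold change -0.40 ± 0.0828, SE, edgeR, adjusted p = 0.00782). Txndc11, a thioredoxin-like protein, and Fkbp11, an ER prolyl isomerase, had log2 fold changes of -0.33 and -0.38 (edgeR, adjusted p = 0.0226 and 0.0325), each without overlap. The call of Txndc11 was lost in 3 of 6 fits with a library left out (edgeR, adjusted p = 0.0908 without control replicate 1, 0.0539 without control replicate 2 and 0.117 without 10panx1 replicate 3). That of Fkbp11 was lost in 5 of 6 (edgeR, adjusted p = 0.0942, 0.106 and 0.051 without control replicates 1, 2 and 3, and 0.0991 and 0.0509 without 10panx1 replicates 2 and 3). On log2(TPM + 1) with limma, Sec61g, Txndc11 and Fkbp11 were not called (adjusted p = 0.0525, 0.105 and 0.112). In the opposite direction, Ero1a, the oxidase that recharges P4hb and also a known target of the hypoxia response, kept its call in these fits. It lay at 2306, 2329.9 and 2440.5 CPM with 10panx1, against 1940.2, 2044 and 2021 CPM in controls (log2 fold change 0.24 ± 0.0423, SE, edgeR, adjusted p = 0.00383). Of the 7 genes of the PERK branch, such as Atf4 and Ddit3, 0 were called (edgeR, 0 at an unadjusted p under 0.05; DESeq2, 0). Atf4, the factor translated when PERK is active, averaged 641 ± 45.0 CPM with 10panx1 and 663 ± 40.7 CPM in controls (log2 fold change -0.05, edgeR, adjusted p = 0.645).

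At 6 h, with 1 library in each group, no test was made and the difference has no replicate check. The median log2 ratio of the 33 members tested at 9 h was -0.03, beside 0.002 over all genes tested at 9 h, and 19 of 33 were below 0, beside 48.8% of all genes. More than 1.1-fold lower, a limit chosen with the data in view, were 8 members (24.8% of all genes), and more than 1.1-fold higher was 1, Xbp1 (25.5% of all genes). Wfs1 lay at 22.0 CPM with 10panx1 and 26.9 CPM in the control, and Manf at 71.8 CPM with 10panx1 and 80.3 CPM in the control. Calr lay at 1331 CPM with 10panx1 and 1470.2 CPM in the control, and Ern1 at 29.8 CPM with 10panx1 and 33.0 CPM in the control. These 4 were past that limit, while Hspa5 (1178 CPM with 10panx1, 1213 CPM in the control), Hyou1 (388 CPM with 10panx1, 393 CPM in the control) and Dnajc3 (79.0 CPM with 10panx1, 80.8 CPM in the control) were closer together. Selenos, at 33.7 CPM with 10panx1 and 33.5 CPM in the control, did not share the direction seen at 9 h. In all, 7 of the 8 members called at 9 h were below 0 at 6 h, and 82.9% of all 555 genes called lower at 9 h were as well. Xbp1 lay at 106 CPM with 10panx1 and 90.1 CPM in the control. Dnajb9 lay at 29.9 CPM with 10panx1 and 35.5 CPM in the control, the lowest ratio after that of Wfs1 among the 33.

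**Figure D4:**
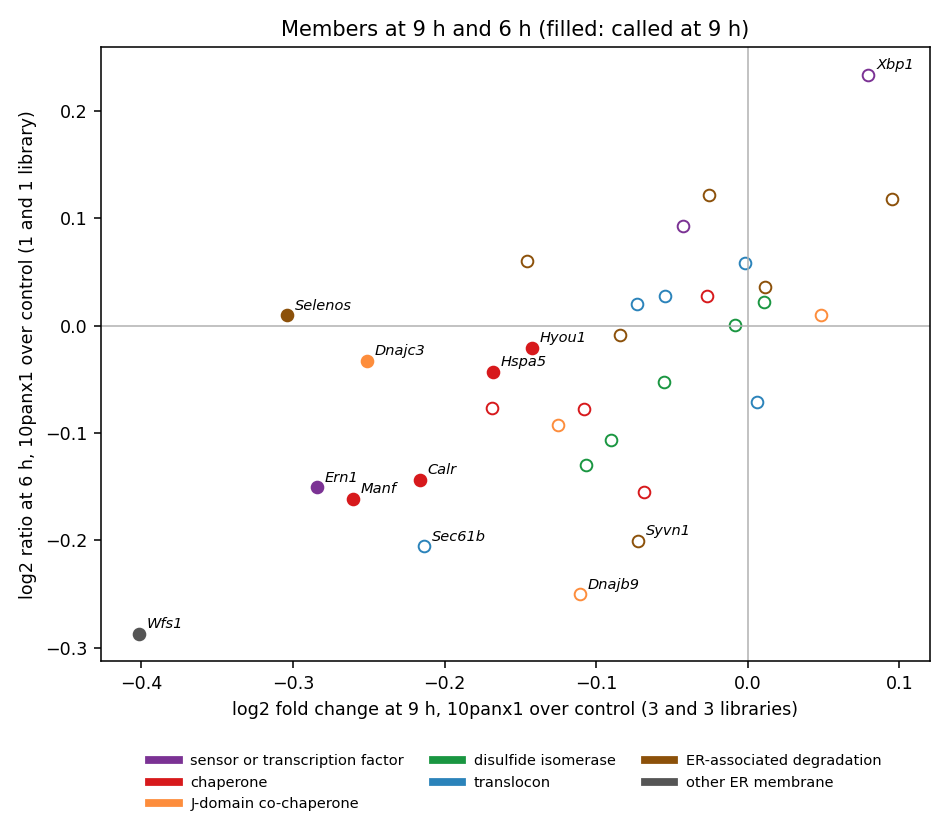
Each of the 33 members by its log2 fold change at 9 h (horizontal) and its log2 ratio between the single libraries at 6 h (vertical), 10panx1 over control, coloured by role; filled points were called at 9 h. Wfs1 is lowest on both axes, and Xbp1 lies above 0 on both.

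Whether the difference made by 10panx1 itself differed between 9 h and 6 h was tested as an interaction in all 8 libraries. Of 34 members 0 passed, as did 0 of 15331 genes (edgeR, 0% called). DESeq2 called 0 members. At an unadjusted p under 0.05 there were 874 genes and 1 member, Sel1l, with a log2 estimate of -0.21 for 9 h minus 6 h (edgeR, adjusted p = 0.872). Sel1l lay at 196 CPM with 10panx1 and 188 CPM in the control at 6 h, the opposite order to that at 9 h. The median standard error of the members' estimates was 0.0951 on the log2 scale, which is larger than the members' median difference at 9 h.

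The libraries at 9 h were set against those at 6 h with treatment as a covariate. The members moved in both directions: 17 were lower and 6 higher at 9 h, and Atf6 and Ern1 changed in the opposite direction to Xbp1. Most genes changed in this comparison (63.1% of 14315 tested, 31.5% lower and 31.6% higher, edgeR), and the members' share was 67.6%. The members' median log2 fold change was -0.12, beside -0.001 over all genes. The 9 h group holds the libraries of the comparison above, so the values of both comparisons are not independent. Other measures differed between times as well. Mitochondrial transcripts took 1.14 to 1.28% of counts at 9 h, against 1.51% with 10panx1 and 1.43% in the control at 6 h. The oligodendrocyte list, mostly Cnp, summed to 27.8 to 35.1 CPM at 9 h, against 45.9 CPM with 10panx1 and 45.4 CPM in the control at 6 h. The B or plasma cell list, mostly Sdc1, summed to 24.6 to 34.2 CPM at 9 h, against 44.1 CPM with 10panx1 and 56.1 CPM in the control at 6 h. The endothelial list, mostly Flt1, summed to 226 to 258 CPM at 9 h, against 205 CPM with 10panx1 and 178 CPM in the control at 6 h. Their part in the members' changes was not tested. As the labels give no batch, a batch effect and an effect of time cannot be told apart. With the deposited TPM the median of the genes tested at 9 h shifted to -0.11, against 0.02 with TMM-scaled counts, and relative to it the members' median was -0.12 with TPM and -0.13 with counts.

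Atf6 had the largest rise among the called members. It ran from 181 to 194 CPM with a median of 191 CPM at 9 h (n = 6), against 116 CPM with 10panx1 and 109 CPM in the control at 6 h. No library at 9 h came near those at 6 h, and the fitted log2 fold change was 0.75 ± 0.0507 (SE, edgeR, adjusted p = 1.4e-09). Ern1 was also higher at 9 h, at 31.7 to 42.8 CPM with a median of 38.5 CPM, against 29.8 CPM with 10panx1 and 33.0 CPM in the control at 6 h. There was overlap, as 2 of the 10panx1 libraries at 9 h lay below the control at 6 h, and the log2 fold change was 0.26 (edgeR, adjusted p = 0.00843). Xbp1 went the other way, at 72.7 to 89.8 CPM with a median of 77.2 CPM at 9 h, against 106 CPM with 10panx1 and 90.1 CPM in the control at 6 h, a log2 fold change of -0.30 (edgeR, adjusted p = 0.0011).

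Of the 8 chaperones 4 fell and 1 rose, beside 31.5% of all tested genes lower and 31.6% higher. Hspa5 ran from 1233 to 1439.8 CPM with a median of 1324 CPM at 9 h, against 1178 CPM with 10panx1 and 1213 CPM in the control at 6 h, a rise of 0.15 on the log2 scale (edgeR, adjusted p = 0.0054). Calr, by contrast, ran from 1019 to 1236 CPM with a median of 1163 CPM at 9 h, against 1331 CPM with 10panx1 and 1470.2 CPM in the control at 6 h, and Manf from 49.8 to 62.8 CPM with a median of 57.6 CPM, against 71.8 CPM with 10panx1 and 80.3 CPM in the control at 6 h. Their log2 fold changes were -0.29 and -0.42 (edgeR, adjusted p = 1.05e-05 and 5.42e-06). Hspa5 and Calr thus differed in direction between times while both fell with 10panx1 at 9 h. Hyou1 and Sdf2l1 fell by 0.21 and 0.14 on the log2 scale, and Hsp90b1, Canx and Creld2 were not called, with values of 0.06, 0.03 and 0.01 that turned negative with TPM.

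All 4 J-domain co-chaperones were called, 3 lower and 1 higher, beside 63.1% of all tested genes called in this comparison. Dnajc3 had the largest fall among the members, at 41.9 to 54.0 CPM with a median of 50.3 CPM at 9 h, against 79.0 CPM with 10panx1 and 80.8 CPM in the control at 6 h. The times were far apart, with a log2 difference of -0.72 ± 0.0686 (SE, edgeR, adjusted p = 9.84e-08). Dnajb9 rose, at 40.4 to 49.2 CPM with a median of 41.2 CPM at 9 h, against 29.9 CPM with 10panx1 and 35.5 CPM in the control at 6 h (log2 fold change 0.38, edgeR, adjusted p = 0.000496). Dnajb11 and Dnajc10 each fell by 0.12.

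Among the 5 disulfide isomerases 3 fell and 1 rose, beside 31.5% of all tested genes lower and 31.6% higher. P4hb ran from 1514 to 1601 CPM with a median of 1537 CPM at 9 h, against 1320.3 CPM with 10panx1 and 1300.1 CPM in the control at 6 h, a log2 fold change of 0.24 (edgeR, adjusted p = 6.55e-05). Pdia5, the least abundant of them, ran from 24.5 to 28.1 CPM with a median of 26.2 CPM at 9 h, against 36.7 CPM with 10panx1 and 39.5 CPM in the control at 6 h, a log2 fold change of -0.55 (edgeR, adjusted p = 4.9e-06). Pdia6 and Pdia3 had log2 fold changes of -0.23 and -0.16 and passed, and Pdia4 had -0.02 and did not.

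In the translocon-associated protein complex Ssr1 ran from 422 to 479 CPM with a median of 474 CPM at 9 h, against 626 CPM with 10panx1 and 614 CPM in the control at 6 h. Ssr2 ran from 234 to 248 CPM with a median of 241 CPM, against 308 CPM with 10panx1 and 324 CPM in the control at 6 h. Both fell (log2 fold change -0.41 and -0.39, edgeR, adjusted p = 1.15e-06 and 5.86e-07), while Ssr3 ran from 281 to 297 CPM with a median of 289 CPM, against 285 CPM with 10panx1 and 274 CPM in the control at 6 h, and was not called (log2 fold change 0.05, and -0.06 with TPM). The channel subunits Sec61a1 and Sec61b were not called, with log2 fold changes of 0.01 and -0.05.

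Of the 8 degradation genes 3 fell and 1 rose, beside 31.5% of all tested genes lower and 31.6% higher. Derl2 ran from 39.3 to 42.9 CPM with a median of 41.8 CPM at 9 h, against 57.0 CPM with 10panx1 and 52.3 CPM in the control at 6 h, and Derl1 from 130.3 to 150.3 CPM with a median of 141 CPM, against 173 CPM with 10panx1 and 174 CPM in the control at 6 h. Their log2 fold changes were -0.40 and -0.30 (edgeR, adjusted p = 4.34e-05 and 4.14e-05). Herpud1 fell by 0.20 and Edem1 rose by 0.16 on the log2 scale (edgeR, adjusted p = 0.018 and 0.00445). Derl3 had 2 counts with 10panx1 and 4 counts in the control at 6 h and was not called (edgeR, adjusted p = 0.0627). Selenos, which fell with 10panx1 at 9 h, was not called between times, at a log2 fold change of 0.12 (edgeR, adjusted p = 0.291), and neither were Syvn1 at -0.14 and Sel1l at 0.07. Wfs1 was lower at 9 h as well, at 13.9 to 21.0 CPM with a median of 17.6 CPM, against 22.0 CPM with 10panx1 and 26.9 CPM in the control at 6 h, a log2 fold change of -0.49 (edgeR, adjusted p = 0.000113). The 23 calls kept their direction in 13 alternatives and 15 of them kept the call in each. Hspa5, Ern1 and Edem1 lost the call with the deposited TPM. Single libraries decided some calls: without the control at 6 h the calls of Hspa5, Ern1, Sdf2l1, Dnajb11, Dnajc10, Edem1 and Herpud1 were lost, and without the 10panx1 library at 6 h those of Xbp1, Dnajb11, Dnajc10 and Herpud1. At 9 h, Dnajb11 lost the call without control replicate 1 or 2 or 10panx1 replicate 1 or 3, Sdf2l1 without control replicate 2 and Dnajc10 without control replicate 3.

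**Figure D5:**
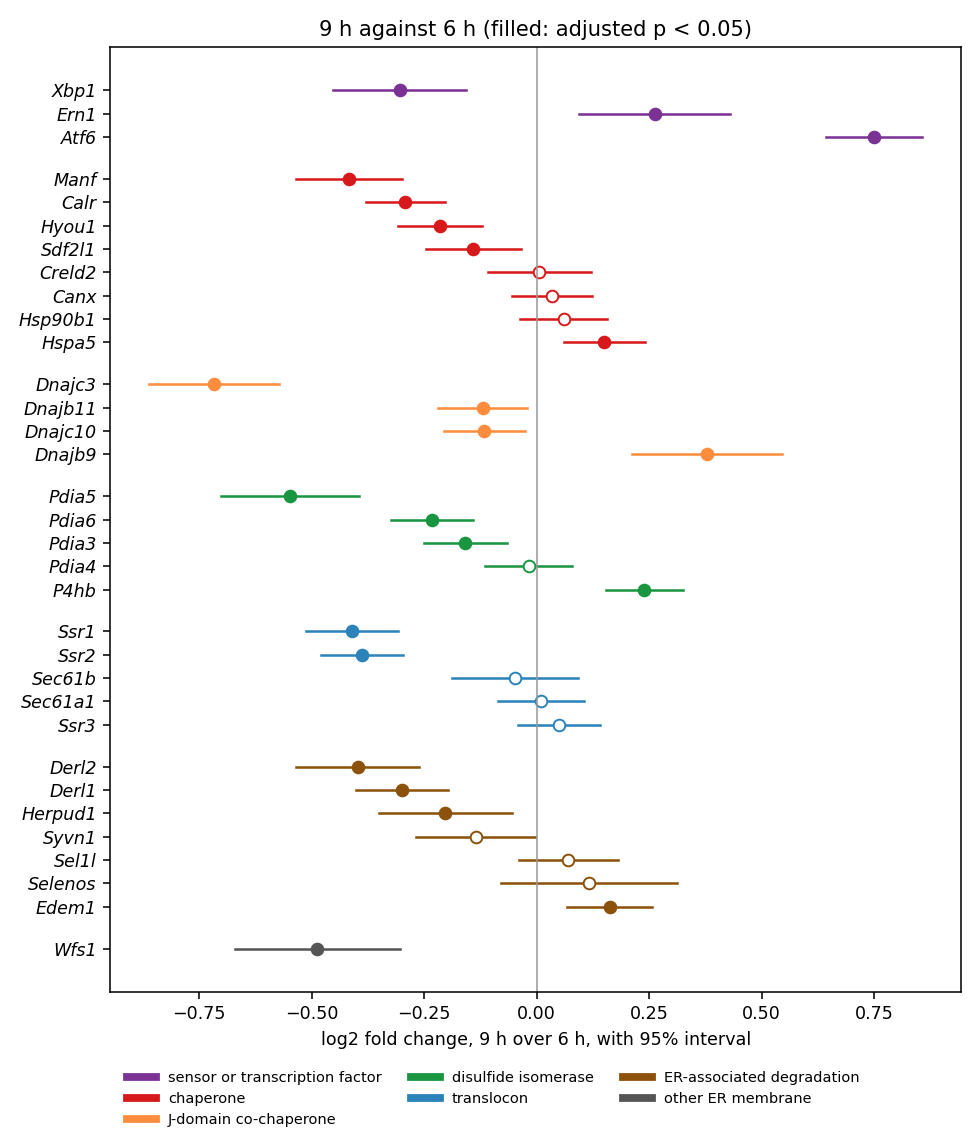
Log2 fold change, 9 h over 6 h, with its 95% interval (edgeR), grouped and coloured by role; filled points passed the adjusted p of 0.05, and Derl3, with 2 and 4 counts at 6 h, is left out. Dnajc3 at -0.72 and Atf6 at 0.75 are the outermost points, and Ssr3 lies near 0 while Ssr1 and Ssr2 lie near -0.4.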

How the data were processed

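Poly(A) RNA was made into directional libraries, per the labels' protocols. The deposited tables give, for each of 8 libraries, whole-number read counts per gene, not normalized by the authors, and TPM, which the authors scaled to a sum of 1000000. FastQC, Trimmomatic, STAR, featureCounts, DESeq2 and GRCm38 are named per the submitters' processing notes; for the strand setting and multi-mapping reads nothing is given in the sources used here. Gene coordinates in the table rarely matched GRCm38 starts (2.73% of 51933 nuclear genes), so they carry no build, and promoter windows come from RefSeq on GRCm38.p6. Both tables have 57010 rows; 151 rows repeating 148 symbols with identical values were dropped, which left 56859 genes.

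Counts were filtered with filterByExpr, TMM-scaled and tested with edgeR 4.0.16 (R 4.3.3, quasi-likelihood, Benjamini-Hochberg, 0.05) over the whole table. At 9 h the 6 libraries entered without a block. The contrast of 9 h with 6 h took all 8 libraries with treatment as covariate, and the interaction used the same libraries. Standard errors derive from the quasi-likelihood statistic, log2 ratios at 6 h use a prior count of 2, and ± gives the SD unless SE is stated. No replicate pair at 9 h agreed within sampling noise (chi-square per degree of freedom 4.03 to 7.04).

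Members and pathway lists were chosen with earlier results of these data known. All 34 members are named, with Panx1 and Src. Of other pathway genes up to 4 called genes with the smallest p in each direction were named at 9 h, and up to 3 between times. The fold of 1.1 at 6 h was chosen after the data were seen. Alternatives were RLE and upper-quartile scaling, other filters, DESeq2 1.42.0, limma-voom 3.58.1, limma on log2(TPM + 1) and log2(TPM + 0.1), a fit of all 8 libraries, the replicate number as a block, and each library left out in turn. Scripts were tested on simulated data; Python 3.11.15, pandas 2.3.3 and matplotlib 3.10.9 made summaries and plots.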

Additional observations from a re-analysis of the deposited data

How the results depend on the processing

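With 10panx1 at 9 h, 8 members were called lower, and no called member changed sign in 17 alternatives. None of the 8 kept the call in every one. The adjusted p ran from 2.04e-05 to 0.149 for Calr, 0.00407 to 0.121 for Manf, 0.00241 to 0.154 for Wfs1, 0.000473 to 0.17 for Hspa5, 0.00915 to 0.267 for Ern1, 0.0203 to 0.202 for Hyou1, 0.0122 to 0.201 for Dnajc3 and 0.00456 to 0.213 for Selenos (edgeR, DESeq2 or limma). The number called was 7 with RLE scaling, 8 with upper-quartile scaling, 8 with no filter, 9 with DESeq2, 8 with voom and 6 in a fit of all 8 libraries. It was 2 with limma on log2(TPM + 1), 2 with a pseudocount of 0.1, and 0 on log2(TPM + 1) with no filter. In that last fit 0 of 27104 genes were called. An unadjusted p under 0.05 was seen there in 13 members, all lower, and in 3422 of all genes in either direction. Leaving out single libraries gave 2 to 6. Whether the replicate numbers pair the libraries is not known. Deviations of same-numbered libraries correlated at 0.0686, 0.00445 and 0.0564, and those of differently numbered libraries at -0.0735 to 0.0162. Not every library correlated best with its own number. With a replicate block 11 members were called, adding Creld2, Sec61b and Sel1l, and 5.69% of all genes were called lower.

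Changes of sign were seen in members that were not called. At 9 h, Ssr3 stood at 0.0015 with each TPM analysis (log2(TPM + 1), log2(TPM + 0.1), no filter). With single libraries left out, log2 fold changes at 9 h ran from -0.0533 to 0.00233 for Canx, -0.0114 to 0.0227 for P4hb, -0.0233 to 0.0115 for Pdia4, -0.089 to 0.00114 for Ssr1, -0.0153 to 0.0266 for Ssr2, -0.0236 to 0.0189 for Ssr3, -0.0178 to 0.0383 for Edem1 and -0.0592 to 0.00358 for Derl2. Between 9 h and 6 h, upper-quartile scaling gave -0.00400 for Canx, -0.0327 for Creld2 and -0.029 for Sec61a1. TPM gave -0.0456 for Hsp90b1, -0.0711 for Canx, -0.10 for Creld2, -0.0958 for Sec61a1, -0.0557 for Ssr3 and -0.0346 for Sel1l. Without single libraries the range was -0.0407 to 0.048 for Creld2, -0.0375 to 0.0536 for Sec61a1, -0.0326 to 0.171 for Sel1l and -0.0427 to 0.268 for Selenos. The median over the genes tested at 9 h moved as well between times. It was 0.0153 in the main analysis, -0.0228 with upper-quartile scaling and -0.106 with TPM. The cause of the members' changes of sign was not tested. With 1 library per group at 6 h and 3 at 9 h, effects of the size seen at 9 h are near the limit of these data, and Derl3 had too few counts for any statement.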

Other observations

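The other ER folding lists, 95 genes tested at 9 h, moved between times in both directions, with 32 lower and 26 higher at 9 h than at 6 h (edgeR). Of 9 subunits of the oligosaccharyl transferase, the enzyme that attaches sugar chains to new proteins, 7 were lower and 1 was higher. Rpn1, one of them, had a log2 fold change of -0.55 (edgeR, adjusted p = 6.61e-09). Spcs3, a subunit of the signal peptidase, had -0.84 (edgeR, adjusted p = 4.37e-11) and Txndc5, a disulfide isomerase, -0.74 (edgeR, adjusted p = 8e-10). Of 7 genes of the PERK branch 3 were higher and 1 was lower at 9 h. Ppp1r15a, which encodes the phosphatase subunit GADD34 that restores translation, rose by 1.07 on the log2 scale (edgeR, adjusted p = 4.56e-10), and Atf4 by 0.94 (edgeR, adjusted p = 3.99e-09). Atf4 ran from 614 to 693 CPM at 9 h (n = 6), against 370 CPM with 10panx1 and 312 CPM in the control at 6 h. Tmx4, a membrane-bound thioredoxin-like protein, rose by 0.91 (edgeR, adjusted p = 4.74e-10). Of all genes 31.5% were lower and 31.6% higher in this comparison, and a batch effect cannot be told apart from time.

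Of the 8 members with an ERSE match that were tested at 9 h, 3 (Hspa5, Calr and Dnajc3) were called lower with 10panx1. The median log2 fold change of these 8 was -0.14. Of 19 tested members with a window and no ERSE match 3 were called lower, with a median of -0.06. These 19 included Herpud1 and Dnajb11, which had an ERSE-II match. Of all tested genes 4.14% were called lower. All 8 tested ERSE members were below 0, between -0.25 and -0.03. The 19 without the ERSE ran from -0.40 to 0.10, and 27 of all 33 tested members were below 0. The 6 members without a window, among them Hyou1 and Manf, which were called lower, are in neither group. Hspa5, Calr, Hsp90b1, Canx and Creld2 have the ERSE and are also chaperones, a role with all 8 members below 0. Element and role cannot be told apart here, and no test was made of the difference between these groups of members. In the comparison of 9 h with 6 h the called ERSE members included both directions, with Hspa5 at 0.15 and Dnajc3 at -0.72.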
